A study of Mus musculus with 35 samples.

Results

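NXF1 binding sites that lay beside binding sites of all 7 SR proteins were examined in mouse P19 cells. Of the 35741 clusters of cross-linked tags listed for NXF1 in the pooled data, 8311 (23.3%) had more than 3 tags of each of SRSF1, SRSF2, SRSF3, SRSF4, SRSF5, SRSF6 and SRSF7 within 30 nt of the cluster centre on the same strand. These 8311 clusters are called members here, and the 61-nt stretch around each centre is called its window. The members were thus chosen by the summed tags of the pooled SR protein data in these windows, and the rule used neither the annotation, nor the nucleotide sequence, nor the control. In individual-nucleotide-resolution cross-linking and immunoprecipitation (iCLIP), UV light of 254 nm joins protein to RNA in living cells, the protein is purified, and each cDNA copied from the attached RNA ends beside the cross-linked nucleotide and is counted as 1 tag.

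P19 is an embryonal carcinoma line that is pluripotent. Each line carried mouse NXF1 or 1 mouse SR protein fused to GFP on a bacterial artificial chromosome in addition to its own gene copies, and the lines were stable clones obtained by drug selection and cell sorting. No treatment or time course is given in the labels, and the same anti-GFP antibody was used throughout. SRSF1 had 4 libraries, SRSF2 had 5, SRSF3 had 3, SRSF4 had 3, SRSF5 had 4, SRSF6 had 3, SRSF7 had 6 and NXF1 had 3, while the 4 libraries of the background control GFP-NLS, in which GFP carries just a signal for import into the nucleus, were given as pooled data alone. The libraries listed between 13038 and 4459523 tags with a median of 237488, and levels are given as CPM, a library's tags in a window scaled to its listed tags (tags per 1000000). Pluripotency genes were bound in these cells: members lay in Dnmt3b (21), Lin28a (13), Pou5f1 (4) and Sox2 (3), and none lay in the other 6 marker genes examined, of which Zfp42 had 9 tags in 3 of the 31 single libraries.

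SR proteins are splicing factors with RNA recognition motifs and a tail rich in arginine and serine. They bind exons, help to define splice sites, and several of them shuttle to the cytoplasm with the mRNA. NXF1 is the main export receptor for mRNA: it has little sequence preference of its own, is handed to the mRNA by adaptor proteins, and carries the particle through the nuclear pore. SR proteins are among the known adaptors.

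The sequences of the windows with the highest NXF1 levels, and of windows that typify the other RNA classes, show what kind of RNA the members lie in. They are written 5′ to 3′ on the RNA strand from the mm9 genome, with the 21 nucleotides around the cluster centre in capitals. For UTRs, the central 21 nucleotides are shown alone.
Intergenic cluster (chr17:39984427-39984487, plus strand): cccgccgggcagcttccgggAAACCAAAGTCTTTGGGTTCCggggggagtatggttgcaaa
Y_RNA noncoding exon (chr6:47738094-47738154, minus strand): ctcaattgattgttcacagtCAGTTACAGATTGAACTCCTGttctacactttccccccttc
Snord118 noncoding exon (chr11:68886976-68887036, plus strand): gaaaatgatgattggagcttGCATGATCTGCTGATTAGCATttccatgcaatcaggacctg
U2 noncoding exon (chr11:101466268-101466328, plus strand): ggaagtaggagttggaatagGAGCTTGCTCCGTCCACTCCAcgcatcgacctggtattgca
U5 noncoding exon (chr4:116862599-116862659, plus strand): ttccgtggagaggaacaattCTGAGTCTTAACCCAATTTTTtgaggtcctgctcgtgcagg
Hist1h4a coding sequence (chr13:23852704-23852764, minus strand): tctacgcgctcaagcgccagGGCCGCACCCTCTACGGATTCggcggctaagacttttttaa
Hist1h4d coding sequence (chr13:23673731-23673791, plus strand): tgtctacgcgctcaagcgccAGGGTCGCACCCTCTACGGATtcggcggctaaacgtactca
Ddx39b 5′ UTR (chr17:35379610-35379630, plus strand): GAGAATAGCGGCAGCCACATG
Npm1 3′ UTR (chr11:33052593-33052613, minus strand): GTATGTATGGAATGTTATGAT
Intergenic cluster (chr3:96206149-96206209, plus strand): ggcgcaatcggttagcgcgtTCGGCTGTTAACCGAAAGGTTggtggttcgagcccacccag
Intergenic cluster (chr13:21253281-21253341, plus strand): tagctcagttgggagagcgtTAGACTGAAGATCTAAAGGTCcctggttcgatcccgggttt

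Members were sites in coding sequence more often than any other kind of site. Coding sequence held 3586 members (43.1%, 95% Wilson interval 42.1 to 44.2, counting error only), 3′ UTRs held 958 (11.5%), 5′ UTRs 668 (8.04%), introns 573 (6.89%), exons of noncoding genes 509 (6.12%), other exons 189 (2.27%) and intergenic sequence 1828 (22.0%). The interval treats members as independent, but 2053 members had the centre of another member within 60 nt, so that their windows overlapped. Over all NXF1 clusters the coding share was 29.1% and the 3′ UTR share 24.3%. Clusters without any SR protein (5011) had 5.33% in coding sequence and 22.4% in 3′ UTRs, and the 1270 clusters with SRSF3 alone had 7.64% and 42.5%. The coding share was higher with every further SR protein, with 12.4, 18.04, 24.5, 29.4, 37.0 and 41.7% for 1 to 6 proteins, whereas the 3′ UTR share was between 32.3 and 34.3% for 1 to 4 proteins, 27.4% for 5 and 21.9% for 6. These shares are descriptions without a test, since the groups of clusters were made from the tags themselves.

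**Figure D1:**
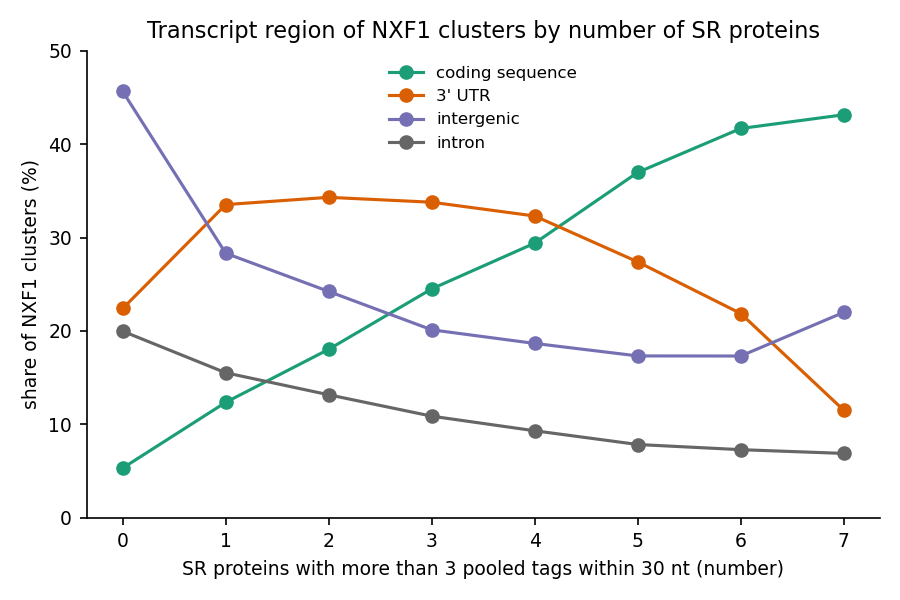
Share of NXF1 clusters (%, vertical axis) in coding sequence, 3′ UTRs, intergenic sequence and introns, against the number of SR proteins with more than 3 pooled tags within 30 nt of the centre (horizontal axis, 0 to 7). Each point is 1 set of clusters; the coding line climbs from 5.33 to 43.1% and the 3′ UTR line ends at 11.5%.

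Within transcripts, members lay in internal exons. Of the 4932 members in an exon of the representative mRNA of a gene, 3226 (65.4%) were in an internal exon, 1005 (20.4%) in the last, 569 (11.5%) in the first and 132 (2.68%) in an mRNA of a single exon. Among all NXF1 clusters 44.4% were in internal exons and 44.4% in last exons, and last exons held 75.1% of the clusters without any SR protein and 79.8% of those with SRSF3 alone. Within internal exons, whose median length was 152 nt, 48.9% of the members were within 50 nt of the exon start and 12.03% within 50 nt of its end, beside 47.0 and 12.4% of all clusters. The members were also wider and better covered, with a median width of 16 nt against 11 nt and a median of 5 NXF1 tags against 3, and they held 432626 of the 569674 tags in NXF1 clusters (75.9%).

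The bases around the members differed from those of the other clusters in a modest way. Uridine, written T, stood at the centre of 33.4% of members, beside 38.7% of all clusters and 43.8% of those without any SR protein. A run of TTTTT was in 14.4% of the windows of members and 19.2% of all windows. The purine motif GAAGA, which is of the type bound by SRSF1 and its relatives, was in 17.2% against 13.2%, and CNTC, the pyrimidine motif of SRSF3, was in 60.1% against 53.7%. GGAGA was in 10.2 against 9.10% and ACTTC in 6.75 against 5.91%. Clusters with SRSF3 alone had CNTC in 61.4% and ACTTC in 7.48% of windows, above the members. The motifs were searched on the RNA strand alone, a match to one may overlap a match to another, and no test was made.

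The border of the set was not sharp. For 1127 members the lowest of the 7 tag counts was 4, the smallest that the rule admits, and 1447 other clusters had a lowest count of 3; the coding share was 44.3% just inside and 42.6% just outside, and the 3′ UTR share was 17.2 and 21.4%. SRSF5, SRSF1 and SRSF7, which had the fewest pooled tags, passed at the fewest clusters, though not in the order of their tags. SRSF5, with 1684467 pooled tags, passed at 14870 clusters, SRSF1 (1333834 tags) at 15811 and SRSF7 (1449645 tags) at 16995, whereas SRSF6 (7437045 tags) passed at 26005 and SRSF3 (6254584 tags) at 25495. SRSF4, with 1841695 pooled tags, passed at 20294. The part of depth in this order was not tested. Among the 5317 clusters with 6 of the 7 proteins, the missing protein was SRSF5 at 2217, SRSF1 at 1464, SRSF7 at 1017, SRSF4 at 362, SRSF3 at 185, SRSF2 at 37 and SRSF6 at 35.

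The identity of the SRSF2 data limits the set. The data of the libraries labelled SRSF2 replicates 2 and 5 name SRSF1 in their headers and hold 94.3% of the tags of the 5 SRSF2 libraries. Nearly all of their positions are listed in the pooled SRSF2 data (1.95 and 2.03% are not), whereas 87.1 and 87.6% are not listed in the pooled SRSF1 data. When the single libraries of each protein were summed in place of the pooled data, 6479 clusters passed (38.4% coding, 10.4% 3′ UTR). Without those 2 libraries 2975 clusters passed, of which 2855 were members, and the coding share was 23.6%, the 3′ UTR share 9.14% and the intergenic share 37.1%. Other deep libraries also moved the count: 3589 clusters passed without SRSF1 replicate 1, 3317 without SRSF4 replicate 2 and 4920 without SRSF5 replicate 4, with coding shares of 33.7, 29.6 and 33.6%. The coding share stayed above the 29.1% of all NXF1 clusters in each of these sets but the one without SRSF2 replicates 2 and 5.

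One deep library, SRSF7 replicate 4 with 4459523 tags, was not part of the pooled data and so was not used by the rule. Of its positions, 86.2% are not listed in the pooled SRSF7 data, and at 45.7% of those that are, the library alone has more tags than the pool; no other library had more tags than its pool at any position. It had more than 3 tags at 8154 members, which is 98.1% of them, beside 66.8% of all NXF1 clusters (23868), 4.71% of those without any SR protein and 21.4% of those with SRSF3 alone. Its median was 48 tags per window at members and 10 at all clusters.

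The NXF1 libraries themselves covered the members unevenly. NXF1 replicates 1, 2 and 3 had a tag in 4972, 2936 and 2309 of the windows, and 58.6, 63.0 and 64.4% of their listed tags lay there. All 3 had a tag at 1621 members (19.5%, against 6.11% of all clusters), 1188 members were reached by 2 libraries, 2978 by 1, and 2524 by none of the 3, having been listed from the pooled data. The members thus ranged from a window with at least 16043 CPM in every NXF1 library to windows that no single NXF1 library listed.

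The control marked many of the strongest members. GFP-NLS had a tag within 30 nt of 634 members, which is 7.63% of them beside 2.44% of all NXF1 clusters (872). In all, 11009 of its 21880 tags (50.3%) lay in windows of members, 63.3% of these in intergenic windows, 24.5% in noncoding exons and 1.34% in coding sequence. A single control tag gives 45.7 CPM, whereas the median over members of the mean NXF1 level was 5.61 CPM, and 380 members had more than 3 control tags. At 409 members the control level exceeded the mean NXF1 level, at some of them on 3 control tags or fewer. Conversely, 328 members had no control tag and a mean NXF1 level above 137 CPM, the level that 3 control tags would give.

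The 10 members with the highest NXF1 level lay in small structured RNAs or in a stretch of chromosome 17 without an annotated gene, and 9 of them had control tags. The highest was the intergenic window chr17:39984355-39984559, with 16043, 24473 and 24248 CPM in NXF1 replicates 1, 2 and 3. The control had 23538 CPM there, which lies above NXF1 replicate 1 and below replicates 2 and 3, and the SR protein libraries ranged from 192 to 11472 CPM with a median of 2344. This window is 1 of 15 members between 39979939 and 39985047 on the plus strand, which together held 11.3% of the NXF1 tags in members and 1527 control tags. The annotation used here has no gene on that strand there, and the pseudogene AY036118 lies next to it, at 39985048 to 39985772 on the minus strand; in the RefSeq gene order of a later assembly the gene before AY036118 is Rn18s-rs5, a pseudogene related to 18S ribosomal RNA. A further 3 windows of the stretch were among the 10, at 39983933 (mean 7886 CPM), 39984111 (7211 CPM) and 39983383 (5745 CPM), with control levels of 5759, 7313 and 5987 CPM.

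The rest of the 10 were annotated small RNAs. Y_RNA, a copy of the small RNAs that bind the Ro protein, had 7617, 9148 and 10496 CPM with NXF1 and 2834 CPM in the control. The U2 and U5 small nuclear RNAs of the spliceosome had means of 6198 ± 1507 and 5600 ± 1592 CPM (SD, n = 3), beside 2377 and 4799 CPM in the control. U3, a nucleolar RNA that guides cleavage of ribosomal precursor RNA, had 5828 ± 899 CPM (SD, n = 3) and 3656 CPM in the control. A 5.8S ribosomal RNA copy, n-R5-8s1 on chromosome 18, had 7554 ± 2435 CPM (SD, n = 3), below the 13391 CPM of the control.

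Snord118, the U8 nucleolar RNA that is needed to process 5.8S and 28S ribosomal RNA, stood apart from these in that the control listed no tag, which allows up to 137 CPM. NXF1 had 7815, 8813 and 6393 CPM. SRSF3 had 1615, 487 and 577 CPM, and SRSF6 had 392, 551 and 634 CPM. Elsewhere the libraries scattered, from 0 in SRSF1 replicate 4, SRSF2 replicates 2 and 3, SRSF5 replicate 4 and 4 of the 6 SRSF7 libraries to 3639 CPM in SRSF5 replicate 2. Each of the 3 NXF1 libraries was above every SR protein library. Since the clusters were called from NXF1 tags, this order is a description.

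In coding sequence, histone mRNAs led. The 3 coding members with the highest NXF1 level were in Hist1h4a, Hist1h4d and Hist1h4h, which encode histone H4; their windows shared runs of 23 to 46 identical nucleotides, so that their tags cannot be told apart by sequence in these runs. Hist1h4a had 691, 342 and 708 CPM with NXF1, Hist1h4d had 728, 385 and 580, and Hist1h4h had 636, 378 and 589, and the control listed 0, 1 and 0 tags. In 3′ UTRs the leading members were in Lars2 (mean 730 CPM, control 777 CPM), Npm1 (300.3 CPM, control 229 CPM) and Hist1h2af (287 CPM, control 229 CPM). Lars2 encodes the mitochondrial leucyl-tRNA synthetase and Npm1 the nucleolar protein nucleophosmin. Of the leading 5′ UTR members, Ddx39b encodes the helicase UAP56 of the TREX export complex; NXF1 had 223, 271 and 239 CPM, no SR protein library exceeded 113 CPM, and the control listed no tag. The other leading 5′ UTR members, in Ndufs7 (mean 242 CPM) and Taf1c (128 CPM), had 6 and 3 control tags. These are 274 and 137 CPM in the control, above the NXF1 means. In introns the leading members were in Wwp2 (mean 3672 CPM, control 2194 CPM), Camk1d (2468 CPM, control 1737 CPM) and 2610528E23Rik (2271 CPM, control 4159 CPM). The gene names of these UTR and intron members follow the annotation at the position alone. Whether their sequences also occur in repeated RNAs such as ribosomal RNA was not tested, so binding to these transcripts is uncertain.

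Replication-dependent histone genes were the list with the highest share of members: 78 of their 92 NXF1 clusters (84.8%) were members, in 49 of the 58 genes, and 52 of the 71 that could be tested differed among the SR proteins by the F-test described below, beside 64.9% of all members tested. Genes that host small nucleolar RNAs followed with 89 of 137 clusters (65.0%), and tubulin, actin and chaperone genes with 96 of 154 (62.3%). Ribosomal protein genes had 139 of 227 (61.2%) and translation factor genes 154 of 284 (54.2%). SR-related and nuclear speckle genes had 174 of 329 (52.9%), SR protein kinase genes 17 of 33 (51.5%), hnRNP genes 233 of 477 (48.8%), SR protein genes 72 of 151 (47.7%), core spliceosome genes 76 of 173 (43.9%), 3′ end processing genes 58 of 133 (43.6%), RNA helicase genes 80 of 190 (42.1%) and pluripotency genes 56 of 140 (40.0%). Genes of mRNA export had 52 of 157 (33.1%), long noncoding RNA genes 29 of 107 (27.1%), and genes of the exon junction complex and nonsense-mediated decay 6 of 45 (13.3%). The share over all NXF1 clusters was 23.3%, which includes the intergenic and intronic ones.

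The members were spread over 1988 genes, of which 1071 had 1 member and 156 had 10 or more. Huwe1, a ubiquitin ligase, had 76 members, 66 of them coding. Prex2, an exchange factor for Rac, had 75, of which 50 were coding and 25 intronic. Peg10, an imprinted gene derived from a retrotransposon, had 50 members with 22 in coding sequence and 23 in the 3′ UTR. Thada had 49, the DNA topoisomerase gene Top2a 45, the U6 small nuclear RNA 43 over 42 copies, the Polycomb gene Phc1 41, the speckle protein gene Srrm2 34, Heg1 33 and Ankrd44 32.

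Whether SR proteins bound the members to a different degree was tested over the single libraries (limma voom, moderated F-test over the 7 group means, Benjamini-Hochberg adjustment over all windows tested). A window entered if it had at least 42.1 CPM in 3 libraries and 15 tags in all, which 3979 NXF1 cluster windows and 3100 of the 8311 members did. Of the 3100 members, 2011 (64.9%) differed among the SR proteins at an adjusted p under 0.05, beside 67.6% of all windows tested (2689), so the share among the members was near the background. Without the libraries labelled SRSF2 replicates 2 and 5 it was 1957 members, whereas limma-trend called 669 on log2(CPM + 1) and 1214 on log2(CPM + 10). By class, 510 of 745 coding members, 186 of 257 in 3′ UTRs, 107 of 173 in 5′ UTRs, 177 of 289 in introns, 220 of 422 in noncoding exons and 778 of 1151 intergenic ones differed. In the same order these were 68.5, 72.4, 61.8, 61.2, 52.1 and 67.6% of members. The shares over all windows tested of each class were 73.4, 78.1, 63.7, 62.9, 56.7 and 68.4%, so the class pattern is not particular to the members. Of the members tested, 841 reached the limit in 3 libraries only with the help of a single protein; among the 2259 others 1460 were called (64.6%), beside 67.5% of all windows of that kind. The libraries of SRSF2, SRSF5 and SRSF6 were run in the earlier of 2 years and those of SRSF1, SRSF3, SRSF4 and NXF1 in the later, with SRSF7 in both, so protein and run year cannot be told apart between these groups; among the 4 proteins of the later year 1276 members were called. That nothing in the labels says whether libraries came from separate cultures means that these p-values measure the spread between the libraries alone.

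The protein with the highest mean log2 level differed by RNA class. It was SRSF4 at 459 of the 2011 members, SRSF5 at 428, SRSF1 at 360, SRSF3 at 309, SRSF6 at 219, SRSF7 at 142 and SRSF2 at 94. The shares were close to those over all called windows, at 22.8 against 22.1% for SRSF4, 21.3 against 19.5% for SRSF5 and 10.9 against 12.7% for SRSF6, so this order is not particular to the members. The members led by SRSF6 were mostly coding (161, or 73.5%; between 66 and 78.1% over 38 alternatives), and those led by SRSF5 mostly intergenic (337, or 78.7%; between 73.4 and 82.4%), with 5 in coding sequence and 0 in 3′ UTRs. SRSF3 led 119 coding, 60 3′ UTR and 42 5′ UTR members, and SRSF4 led 104 coding and 74 3′ UTR members. Of the 2011 called members, 551 entered the test only with the help of a single protein, and the counts per class include them. The numbers of members per class are a description of the called windows and were not tested further.

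**Figure D2:**
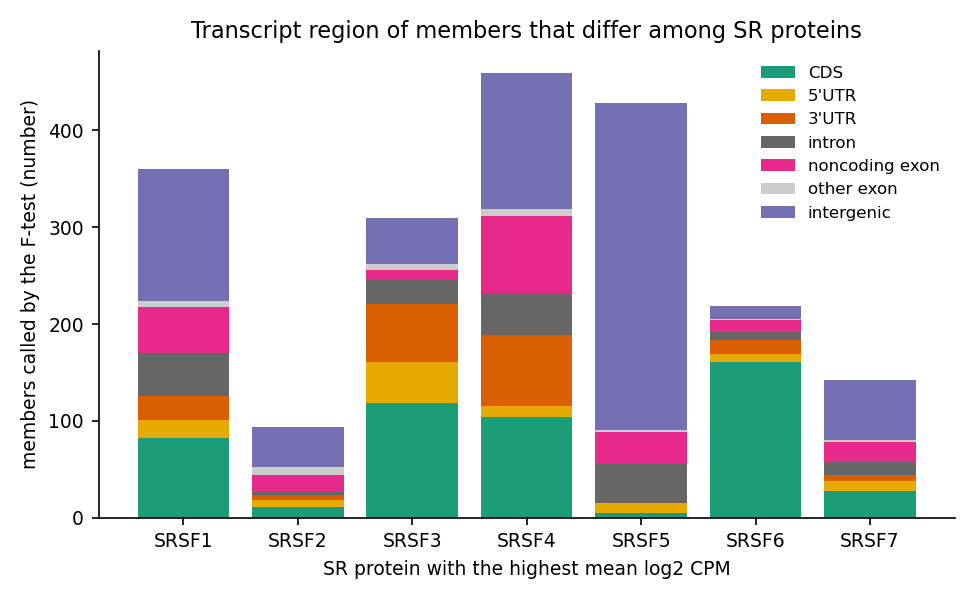
Number of members that differed among the SR proteins (vertical axis) by the SR protein with the highest mean log2 CPM (horizontal axis), with the transcript region in colour. SRSF6 led 161 coding members out of 219, and SRSF5 led 337 intergenic members out of 428.

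The windows named for each protein, 2 with the lowest adjusted p among those it led, lay in different RNA classes. Their sequences are given so that the windows of different leading proteins can be compared.
Hnrnpu coding sequence (chr1:180261315-180261375, minus strand): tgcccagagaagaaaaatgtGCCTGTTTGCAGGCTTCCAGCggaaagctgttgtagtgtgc
Eif3a coding sequence (chr19:60842309-60842369, minus strand): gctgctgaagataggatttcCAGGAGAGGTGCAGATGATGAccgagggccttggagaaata
Nap1l1 coding sequence (chr10:110933085-110933145, plus strand): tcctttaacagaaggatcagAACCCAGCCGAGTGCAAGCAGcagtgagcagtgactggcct
Intergenic cluster (chr12:111554542-111554602, plus strand): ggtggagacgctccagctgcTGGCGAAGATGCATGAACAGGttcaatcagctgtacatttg
SCARNA16 noncoding exon (chr11:116938661-116938721, plus strand): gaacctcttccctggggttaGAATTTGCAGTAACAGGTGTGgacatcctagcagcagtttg
mt-Nd1 coding sequence (chrM:3580-3640, plus strand): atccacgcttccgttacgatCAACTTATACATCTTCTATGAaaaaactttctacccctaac
Gm14303 noncoding exon (chr2:172335008-172335068, minus strand): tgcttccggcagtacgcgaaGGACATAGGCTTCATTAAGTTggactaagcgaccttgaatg
Ubxn11 intron (chr4:133659666-133659726, plus strand): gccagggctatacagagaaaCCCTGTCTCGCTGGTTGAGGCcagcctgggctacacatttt
Taf1c 5′ UTR (chr8:122129043-122129063, minus strand): CTCTGGCTCCTTTGCGGCCCC
Intergenic cluster (chr13:21974767-21974827, minus strand): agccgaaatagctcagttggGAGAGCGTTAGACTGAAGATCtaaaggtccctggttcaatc
Srsf7 5′ UTR (chr17:80606600-80606620, minus strand): AGGAGGTTGCGCAGCCGCTTC

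SRSF6 led at coding sequence of Hnrnpu and Eif3a, which encode a scaffold protein of the nucleus and a subunit of translation initiation factor 3. At the Hnrnpu member SRSF6 had 120, 157 and 88.3 CPM and SRSF4 had 83.2, 75.8 and 107 CPM, while the 5 other proteins had at most 36.1 CPM in any library (limma voom F-test, adjusted p = 2.43e-07). SRSF4 and SRSF6 overlapped there, and NXF1 had no tag in any of its 3 libraries. The Eif3a member had 97.3, 121 and 71.8 CPM with SRSF6, 73.9, 67.9 and 62.7 with SRSF4, 73.9, 52.8, 69.0 and 0 with SRSF1, 50.1 in SRSF2 replicate 4 and 0 in every SRSF3, SRSF5 and NXF1 library (limma voom F-test, adjusted p = 2.43e-07).

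SRSF4 led at the coding sequence of Nap1l1, a histone chaperone, with 268, 137 and 238 CPM. SRSF6 had 96.9, 100 and 87.8 CPM there and SRSF1 replicate 2 had 142 CPM, so the lowest SRSF4 library was within the range of the others (limma voom F-test, adjusted p = 3.66e-07). At the intergenic member chr12:111554547-111554598, SRSF4 had 166, 166 and 119 CPM, no other library exceeded 146 CPM, and all 5 SRSF2 libraries were at 0 (limma voom F-test, adjusted p = 1.90e-07).

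SRSF5 led at SCARNA16, a guide RNA of Cajal bodies, and at the intergenic window chr3:96206155-96206203. At SCARNA16 it had 569, 1553, 950 and 758 CPM, the libraries labelled SRSF2 replicates 2 and 5 had 596 and 470 CPM, the 3 other SRSF2 libraries had 124, 0 and 77.9 CPM, and the 3 SRSF3 libraries had at most 4.89 CPM (limma voom F-test, adjusted p = 1.43e-07). At chr3:96206155-96206203 SRSF5 had 1298, 637, 541 and 297 CPM, SRSF2 had 466.4, 371, 202, 362 and 283 CPM, and no SRSF3, SRSF4, SRSF6 or SRSF7 library exceeded 94.1 CPM (limma voom F-test, adjusted p = 1.25e-07). The 61 nucleotides of that window are identical to the window of the Ndufs7 5′ UTR member, where SRSF5 had 1723, 987, 488 and 508 CPM, so tags of the 2 windows cannot be told apart by sequence alone.

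SRSF3 led at the mitochondrial gene mt-Nd1, a subunit of complex I, and at Gm14303, a pseudogene. The mt-Nd1 member had 1473, 803 and 720 CPM with SRSF3 and 935, 221 and 432 CPM with NXF1, while the other SR protein libraries reached at most 614 CPM, in SRSF7 replicate 1 (limma voom F-test, adjusted p = 1.80e-06). The Gm14303 member had 51.3, 50.2 and 50.8 CPM with SRSF3, beside 56.5 CPM in SRSF4 replicate 3 and 54.4 CPM in SRSF7 replicate 6; it entered the test only through SRSF3, so its values are a description.

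SRSF1 led at the Taf1c 5′ UTR, a subunit of the RNA polymerase I factor, and at a Ubxn11 intron. At Taf1c it had 227, 1117, 5165 and 7248 CPM in replicates 1 to 4, SRSF4 had 499, 83.7 and 483 CPM, and the other SR protein libraries were at or below 242 CPM (limma voom F-test, adjusted p = 3.03e-07). The SRSF1 library with the highest level there, replicate 4, listed 14900 tags, and the one with the lowest, replicate 1, listed 703367. At Ubxn11 SRSF1 had 114, 179, 207 and 134 CPM and SRSF5 had 112, 108, 119 and 57.8 CPM, with no NXF1 tag in any library (limma voom F-test, adjusted p = 1.49e-06).

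SRSF2 led at chr13:21974759-21974835 and chr13:21253285-21253338, though this call was the least stable: SRSF2 kept the highest mean in 28 and 30 of 39 alternatives. At the first of these the libraries labelled SRSF2 had 1306, 413, 337, 812 and 225 CPM, replicates 2 and 5 being 413 and 225, and SRSF5 had 874, 675, 448 and 305 CPM (limma voom F-test, adjusted p = 4.67e-07). Its window shared 49 and 54 identical nucleotides in a row with chr13:21253285-21253338 and chr19:12076737-12076780. The SRSF7 members were in the Srsf7 gene itself. At the 5′ UTR SRSF7 had 920, 1456, 2363, 205, 1268 and 578 CPM and no other SR protein library exceeded 67.4 CPM (limma voom F-test, adjusted p = 1.90e-07). At the intron it had 1534, 692, 1544, 288, 483 and 462 CPM and no other SR protein library exceeded 29.9 CPM, but that window entered the test only through the SRSF7 libraries, so its values are a description. The cells of these libraries carry a tagged extra copy of Srsf7, and its part in these levels was not tested.

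SRSF3, which the study singles out as a partner of NXF1, was compared with the mean of the other 6 proteins in the same fit. It was higher at 351 of the 3100 members tested (11.3%, beside 11.3% of all windows) and lower at 692 (22.3%, beside 22.5%). Of the 351, 147 entered the test only through the SRSF3 libraries and had to be high there. The median log2 difference was -0.48 over the members and -0.60 over all windows, and per class it was 0.49 in 5′ UTRs, 0.12 in 3′ UTRs, -0.28 in coding sequence, -0.41 in introns, -0.66 in intergenic sequence and -0.91 in noncoding exons. In 5′ UTRs 49 members were higher and 18 lower, in 3′ UTRs 71 and 38, in coding sequence 133 and 229, and in noncoding exons 14 and 75. The higher counts include the 147 members that had to be high, whose split by class was not counted, so the counts per class are a description. The split depended on the scale: with the tags in NXF1 cluster windows as the library total, 518 members were higher and 355 lower, and the median log2 difference was 0.09 over the members and -0.02 over all windows. On log2(CPM + 1) it was 69 higher and 20 lower. Without SRSF3 replicate 1, 2 or 3 in turn, 143, 206 and 215 members were higher and 591, 352 and 371 lower, so each SRSF3 library carried weight in the count.

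The members with the lowest adjusted p for SRSF3 were coding sequences on the higher side, and SCARNA16 and a pair of intergenic windows on the lower side; the sequences not yet printed are given for comparison.
mt-Co1 coding sequence (chrM:5596-5656, plus strand): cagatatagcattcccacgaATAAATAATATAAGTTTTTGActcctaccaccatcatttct
Wnk1 coding sequence (chr6:119904121-119904181, minus strand): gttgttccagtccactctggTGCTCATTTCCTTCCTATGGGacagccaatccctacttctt
Ubap2l coding sequence (chr3:89820635-89820695, minus strand): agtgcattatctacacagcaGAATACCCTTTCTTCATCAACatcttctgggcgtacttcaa
Intergenic cluster (chr19:12076728-12076788, plus strand): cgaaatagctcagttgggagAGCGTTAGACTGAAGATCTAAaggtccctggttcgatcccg
Intergenic cluster (chr6:48068788-48068848, plus strand): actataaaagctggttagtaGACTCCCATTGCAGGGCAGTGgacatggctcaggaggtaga
At mt-Co1, a subunit of mitochondrial complex IV, SRSF3 had 464, 302 and 371 CPM and the other SR protein libraries had at most 111 CPM (log2 difference 5.15, SE 0.68; limma voom, Benjamini-Hochberg adjusted p = 7.41e-06). At Wnk1, a kinase gene, SRSF3 had 68.4, 53.4 and 55.4 CPM and the others at most 12.7, and at Ubap2l it had 80.6, 53.4 and 47.2 CPM and the others at most 21.8. The Wnk1 and Ubap2l windows reached 42.1 CPM in the SRSF3 libraries alone and so entered the test only through them; their values are a description. The SRSF3 libraries were above all other SR protein libraries at these 3 members. NXF1 had 96.8 CPM in 1 library at mt-Co1, 4.21 CPM in 1 library at Ubap2l and none at Wnk1.

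On the lower side were SCARNA16, given above, chr19:12076737-12076780 and chr6:48068818-48068819. SRSF3 had 0, 1.39 and 3.08 CPM at the chr19 window, where SRSF4 had 148, 95.5 and 138 CPM, and several SRSF7, SRSF2 and SRSF1 libraries were at 0 as well (log2 difference -4.36, SE 0.59; limma voom, Benjamini-Hochberg adjusted p = 7.41e-06). At the chr6 window it had 17.1, 1.86 and 0 CPM, beside a median of 37.6 CPM over the libraries of the 6 other proteins. On log2(CPM + 1) and log2(CPM + 10) these 3 lower calls did not pass the threshold, with adjusted p from 0.0529 to 0.340 (limma).

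The intergenic members were searched for box B of tRNA genes, the internal promoter element GTTCNANNC that is also part of the T loop of a tRNA. The motif was chosen after the values had been seen, it was searched on the RNA strand within 80 nt of the centre, and the annotation used here names no nuclear tRNA gene. It was found at 825 of the 1828 intergenic members (45.1%), at 1772 of all 8674 intergenic NXF1 clusters (20.4%), at 7.39% of intergenic clusters without any SR protein and at 3.98% of members outside intergenic sequence. Over all NXF1 clusters the share was 7.40%. Of the intergenic members led by SRSF5, 282 of 337 (83.7%) had it, as had 32 of 42 led by SRSF2, 46 of 136 led by SRSF1, 40 of 140 led by SRSF4, 16 of 47 led by SRSF3, 4 of 14 led by SRSF6 and 8 of 62 led by SRSF7. The chr3 and chr13 windows printed above are of this kind.

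These windows took a larger part of the SRSF5 tags than of the NXF1 tags. The 4 SRSF5 libraries had between 30.4 and 41.4% of their tags in members at intergenic windows with the motif, a mean of 37.1 ± 5.09% (SD, n = 4). The means were 26.6 ± 6.44% for SRSF2 (n = 5), 24.8 ± 5.21% for SRSF1 (n = 4), 22.2 ± 5.30% for SRSF4 (n = 3), 17.5 ± 4.63% for SRSF7 (n = 6), 16.8 ± 2.57% for NXF1 (n = 3), 14.9 ± 4.95% for SRSF3 (n = 3) and 14.6 ± 1.35% for SRSF6 (n = 3). The lowest SRSF5 library was above every NXF1, SRSF3, SRSF4, SRSF6 and SRSF7 library and was exceeded by 1 SRSF1 library (31.1%) and by SRSF2 replicate 2 (36.1%), whose header names SRSF1; the SRSF2 libraries other than replicates 2 and 5 had at most 25.2%. No test was made, since the motif was chosen with the values known.

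**Figure D3:**
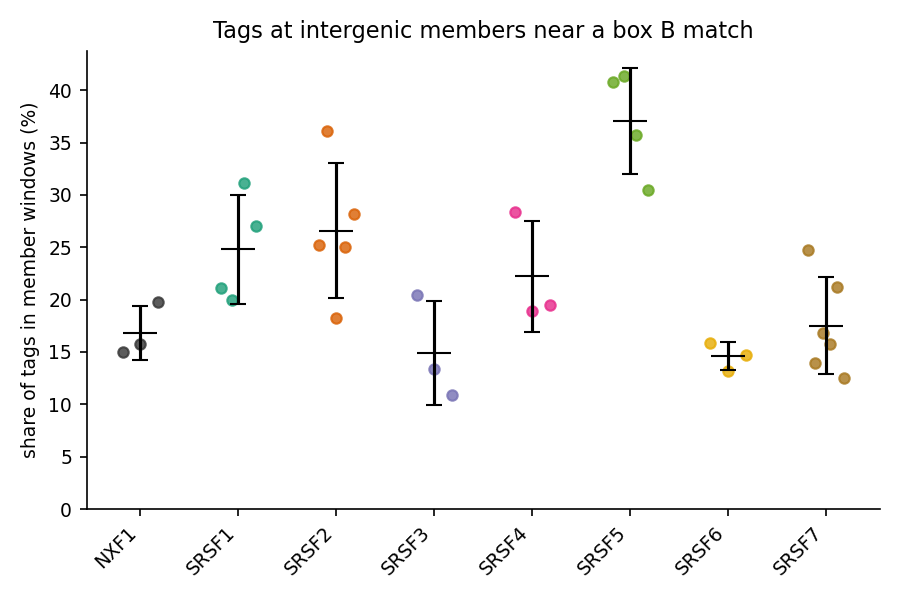
Share of each library's tags in member windows (%, vertical axis) that lay at intergenic members with a box B match within 80 nt, by protein (horizontal axis). Each point is 1 library and the bars give the mean and SD; the 4 SRSF5 libraries lie between 30.4 and 41.4%.

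The share of tags in 3′ UTR members was compared over libraries, each library being 1 value. SRSF3 had the highest share of its member tags in 3′ UTRs, 8.53 ± 1.65% (SD, n = 3), followed by SRSF6 with 6.71 ± 1.23% (n = 3) and SRSF4 with 6.42 ± 3.31% (n = 3). SRSF7 had 3.72 ± 2.46% (n = 6), SRSF1 3.46 ± 1.97% (n = 4), SRSF2 2.86 ± 0.86% (n = 5), NXF1 2.24 ± 0.84% (n = 3) and SRSF5 1.95 ± 0.66% (n = 4). The group means differed among the SR proteins by 6.58 percentage points from highest to lowest (permutation test of the between-group sum of squares, p = 0.00235, adjusted over 7 tests 0.00926). SRSF3 was 4.62 points above the other SR protein libraries (exact permutation test, two-sided, p = 0.00397, adjusted 0.00926). The difference of NXF1 from them was smaller than the spread between libraries (-2.17 points, exact permutation test, two-sided, p = 0.193). With every member weighted equally the calls ended: the SR proteins spanned 5.37 points (permutation test, p = 0.152), SRSF3 was 3.40 points above the others (exact permutation test, two-sided, p = 0.0604), and NXF1 was 2.08 points above the SR proteins instead of below (exact permutation test, two-sided, p = 0.354).

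This order did not hold within mRNA. When only members in exons of mRNAs were counted, an alternative added after the data had been seen, the 3′ UTR share was 20.5 ± 0.52% for SRSF3 (n = 3), 29.4 ± 14.2% for SRSF5 (n = 4), 27.4 ± 13.8% for SRSF2 (n = 5), 27.3 ± 0.68% for SRSF4 (n = 3), 26.2 ± 1.63% for NXF1 (n = 3), 23.5 ± 2.92% for SRSF1 (n = 4), 19.9 ± 7.84% for SRSF7 (n = 6) and 15.9 ± 1.5% for SRSF6 (n = 3). The difference of SRSF3 from the others was then of the opposite sign (-3.36 points, exact permutation test, two-sided, p = 0.594), and the 13.5 points between the highest and the lowest SR protein did not pass (permutation test, p = 0.386). The part of the tags in coding sequence differed between proteins too. It was 26.9 ± 6.30% of the SRSF3 tags in members, 31.6 ± 2.73% for SRSF6, 5.39 ± 5.12% for SRSF5 and 5.43 ± 2.60% for NXF1 (SD, n = 3, 3, 4 and 3). The means were 16.2% for SRSF7, 15.1% for SRSF4, 9.56% for SRSF1 and 9.07% for SRSF2. Whether this had a part in the first result was not tested. Depth moved with the 3′ UTR share of member tags within several groups, though not in SRSF6. There the shallowest library, with 1155384 listed tags, had the highest share, 7.76%. SRSF1 replicates 1 to 4, with 703367, 246270, 86924 and 14900 listed tags, had 5.57, 4.61, 2.34 and 1.30%. The coding share of their tags fell in the same order, from 18.5 to 3.15%. SRSF3 replicate 1, with 409282 listed tags, had 6.64%, beside 9.29 and 9.66% in the deeper replicates 2 and 3. SRSF7 replicates 4 and 6, with 4459523 and 1102861 listed tags, had 7.58 and 5.91%. The 4 other SRSF7 libraries, with at most 54936, had 1.23 to 2.71%. SRSF4 replicate 2, the deepest of its group, had 10.0% beside 3.47 and 5.80%. The part of depth was not tested. Within the later run year, SRSF3 was 3.64 points above the 3 other proteins run then (exact permutation test, two-sided, p = 0.0455) while the 5.07 points among the 4 proteins of that year did not pass (permutation test, p = 0.124), and within the earlier year the 4 proteins without SRSF3 spanned 4.76 points (permutation test, p = 0.00114).

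**Figure D4:**
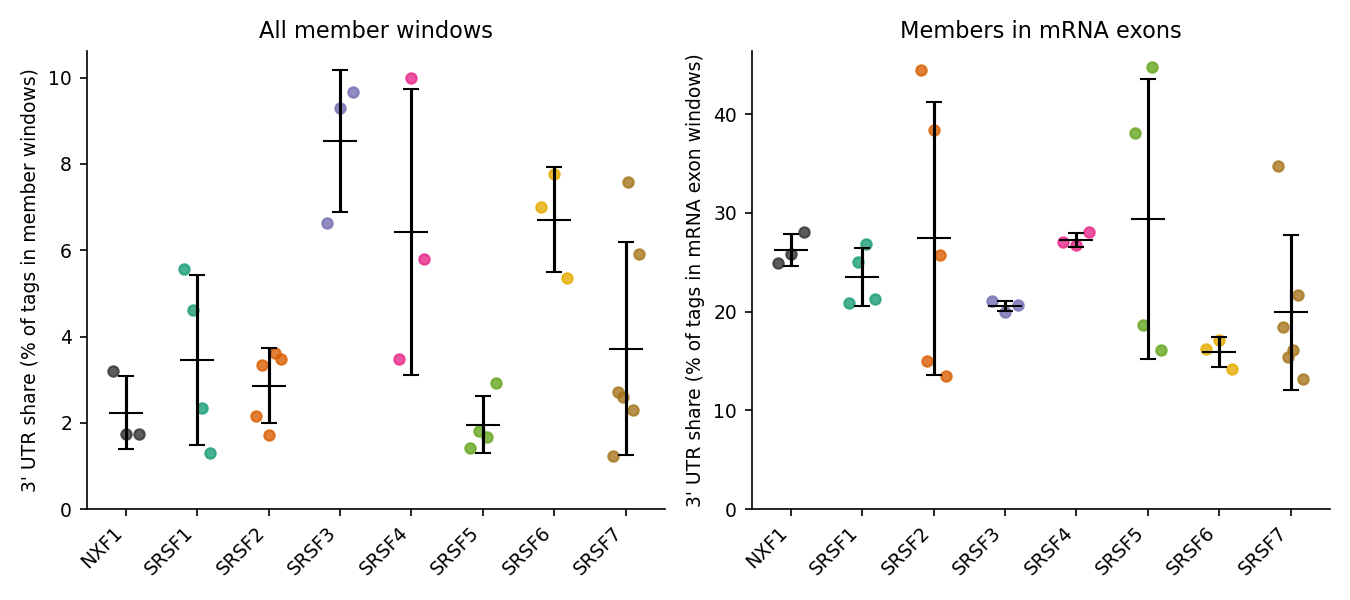
3′ UTR share (%) of each library's tags in all member windows (left) and in members within mRNA exons (right), by protein. Points are libraries, bars the mean and SD; SRSF3 lies between 6.64 and 9.66% on the left and between 20.0 and 21.0% on the right, where SRSF2 and SRSF5 libraries spread from 13.5 to 44.8%.

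The place of the tags within the windows was compared in the same way. NXF1, whose tags set the centre, had 56.9 ± 1.23% (SD, n = 3) of its window tags within 10 nt of the centre. The SR protein means ran from 48.2 ± 0.35% for SRSF3 (n = 3) to 55.7 ± 6.48% for SRSF1 (n = 4), a spread of 7.52 points that did not pass (permutation test, p = 0.172), nor did the difference of SRSF3 from the rest (-4.63 points, exact permutation test, two-sided, p = 0.114). The mean position of the tags was downstream of the NXF1 centre for every protein, from 1.04 ± 0.34 nt for SRSF6 (n = 3) to 4.85 ± 2.02 nt for SRSF5 (n = 4). That span of 3.81 nt passed the test (permutation test, p = 0.00325, adjusted over 7 tests 0.00926), and it fell to 2.42 nt without the members that had a control tag (permutation test, p = 0.0512), to 1.76 nt with every member weighted equally (permutation test, p = 0.185) and to 1.57 nt on listed positions in place of tags (permutation test, p = 0.0942). The difference of SRSF3 from the others in mean position did not pass (-1.02 nt, exact permutation test, two-sided, p = 0.255).

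**Figure D5:**
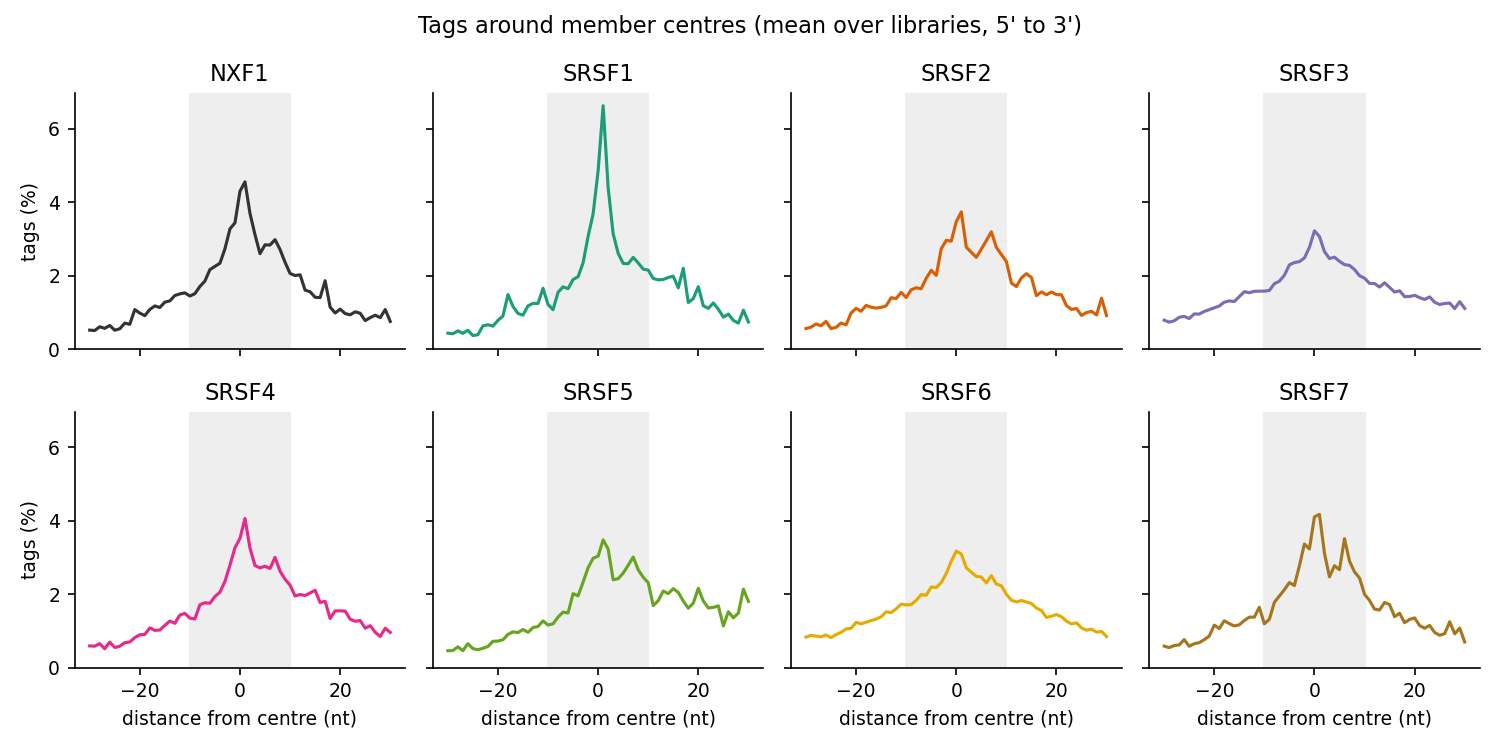
Share of a library's window tags (%, vertical axis, mean over libraries) at each distance from the NXF1 cluster centre (horizontal axis, nt, 5′ to 3′), 1 panel per protein; grey marks the 21 central nucleotides. Every curve peaks at or 1 nt after the centre, from 3.18% for SRSF6 to 6.63% for SRSF1.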

How the data were processed

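Tags of 31 single libraries (28 of SRSF1 to SRSF7 and 3 of NXF1) and the pooled data of NXF1, each SR protein and GFP-NLS were used. The deposited values are signed scores, the sign giving the strand and the size the number of cDNA tags at a position; the authors kept positions with a false discovery rate under 0.05 over 100 permutations within 15 nt (mm9, Ensembl 59), and the submitters' processing notes name CASAVA 1.4. The aligner and the treatment of reads with several matches are not given in the sources used here. Since positions below that threshold are not listed, the scores are not raw read counts, and a 0 means only that no tag is listed.

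Tags within 30 nt of each cluster centre were summed and divided by the library's listed total (CPM). Where windows overlapped, a shared tag counted in each of them, so neighbouring members called in the fits are not independent. Windows were fitted with limma voom (limma 3.58.1, R 4.3.3) over all 31 libraries, with the library group as the only term. Benjamini-Hochberg adjustment was made over all windows tested. The voom method was made for raw counts, which these scores are not. limma-trend on log2 CPM was fitted as an alternative and called fewer members by the F-test (669 and 1214 against 2011). Shares per library were compared by permutation (100000 resamples, or exact). Annotation was GENCODE for the mm9 genome; the RefSeq table of a later assembly gave gene names and order alone. The scripts were tested on simulated data. Named members were the 10 with the highest mean NXF1 CPM, the 3 highest per annotation class, the 2 lowest adjusted p per leading protein, the 3 lowest per direction for SRSF3 and the 10 genes with the most members. The members and gene lists were chosen with earlier results of these data known. Alternatives were other thresholds, distances, scales, filters and limma-trend, single libraries left out, run years and the replicate block. Depth ran from 13038 to 4459523 listed tags, so in the smallest libraries many windows hold no listed tag; intervals and floors cover counting error only. A member on chromosome 18 is named without its sequence.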

Additional observations from a re-analysis of the deposited data

Results flagged for a closer look

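None of the 20 groups of library values examined held a library whose gap to the others passed Dixon's 95% limit. The 20 groups did not cover every measure of every protein. NXF1 replicate 1 stood apart from replicates 2 and 3 in the 3′ UTR share of its member tags, with 3.21% beside 1.75 and 1.75%.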

How the results depend on the processing

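The set depends on the deep libraries and on the threshold. It had 3431 clusters with more than 10 tags per protein and 10745 with more than 1. The coding share was 37.9% with more than 10 tags, 39.9% within 15 nt, 44.2% within 50 nt, 44.4% on listed positions, 38.4% on summed single libraries and 23.6% on these without SRSF2 replicates 2 and 5, where 2975 clusters were left. Leaving out single libraries in turn gave 3317 to 6479 clusters and coding shares of 29.6 to 40.0%. Members called by the F-test numbered 669 and 1214 with limma-trend on log2(CPM + 1) and log2(CPM + 10), and 1276 in the later run year, where 4 proteins were run. Members higher with SRSF3 numbered 69 and 211 with limma-trend, and 143 to 370 without 1 library (143, 206 and 215 without SRSF3 replicates 1, 2 and 3); members lower numbered 20 and 40 with limma-trend, 355 with totals over NXF1 cluster windows, 1055 without the filter and 352 to 719 without 1 library. The 3′ UTR share among SR proteins spanned 5.37 points with members weighted equally (permutation p = 0.152), 5.07 in the later run year (permutation p = 0.124) and 13.5 within mRNA exons (permutation p = 0.386). For SRSF3 against the others it was 3.40 with equal weights (exact permutation p = 0.0604) and -3.36 within mRNA exons (exact permutation p = 0.594), and for NXF1 against the SR proteins 2.08 and 2.70, in the reverse direction. The central share among SR proteins spanned 9.0 points and passed in the earlier run year (permutation p = 0.0379). The mean position spanned 1.76 nt with equal weights, 1.57 on positions, 2.42 without members with a control tag, 1.76 in the later run year and 3.96 within mRNA exons, none of which passed (permutation p from 0.0512 to 0.185). The mRNA exon sets and the coding shares of the alternative sets were added after the data had been seen. The cause of these changes was not tested. For the named members that were called, 767 of 774 alternative values stayed on their side of the threshold. These members were picked for a low adjusted p in the same data, so this is a description. F-test values have no direction, and the leading protein could change. At the chr13 windows SRSF2 kept the highest mean in 28 and 30 of 39 alternatives. With the replicate number as a block, 1938 members were called by the F-test, 348 were higher with SRSF3 and 626 lower, so no count moved by over 1.5 times; the numbers share only a name, since libraries of the same number and different proteins had a mean correlation of deviations of 0.016 and 9 of 31 libraries were closest to their own number. Depth limits the shallow libraries, where a window without a listed tag cannot be told from an unbound one.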
